A study of Mus musculus with 24 samples.

Results

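The genes described here form a module of 32 listed genes. They are the enzymes that build cholesterol, the SREBP transcription factors and sensors that switch those enzymes on, and further genes. Most of the further genes are SREBP targets, including enzymes of fatty acid synthesis. The list was given by symbol and not by measured values. A gene entered where the array table held a probe set that names it alone, and where several did, the probe set with the highest mean was taken. This held for 28 of the 32 genes, out of 30742 genes measured in the series. Acat2 matched no probe set, and the probe sets of Srebf1, Scd2 and Tm7sf2 name a second gene, so these 4 are not analysed here.

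The study hybridised total RNA of mouse intestine and of organoids grown from it, 4 arrays in each of 6 groups. Organoids are epithelial cultures grown from intestinal tissue. They came from fetal intestine of embryonic day 19 or from adult intestine, and both kinds were collected at day 3 and at day 30 of culture in the growth medium that the labels call ENR. The other groups are intestinal tissue of newborn mice (P0) and of adult mice. No strain, genotype or treatment difference is given in the labels, and P0 tissue is not of the embryonic age of the fetal organoids. The labels number the arrays 1 to 4 in each group without saying whether they came from separate animals or cultures, so p-values measure the spread between these arrays, which may be technical.

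Cholesterol is built from acetyl-CoA through mevalonate, isoprenoid pyrophosphates, squalene and lanosterol. When sterol in the endoplasmic reticulum is low, SCAP escorts SREBP proteins to the Golgi, where they are cleaved and released to the nucleus. When sterol is plentiful, INSIG proteins hold the SCAP and SREBP complex back. SREBP2 mainly drives the cholesterol enzymes, and SREBP1c mainly those of fatty acid synthesis. Gut epithelium obtains cholesterol from the lumen and from lipoproteins and also makes its own.

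SREBP proteins bind a sterol regulatory element (SRE), usually beside NF-Y and Sp1 sites. The 250 bases before the start of each gene were searched on both strands for 5 sets of letters: an SRE core TCACNCCAC, its shorter part CACNCCAC, the NF-Y box CCAAT, the Sp1 box GGGCGG and the E-box CACGTG. A match to the SRE core always contains the shorter part. RefSeq promoter sequences (GRCm38.p6) were matched by symbol for 23 of the 28 genes; those of Fdps, Fdft1, Sqle, Stard4 and Scd1 were not in the table used. The SRE core occurred in 1 of the 23, Hmgcs1, against 1.2% of the 17492 protein-coding genes with a sequence. The shorter part occurred in Hmgcs1 and Insig1, against 6.12% of genes. CCAAT was found in 21 of the 23 (91.3%, against 39.5% of genes), missing from Acaca and Scap. The Sp1 box was found in 19 of the 23 (82.6%, against 45.8%), and the E-box in 5 of the 23 (21.7%, against 7.61%). These matches describe letters in a fixed window and do not show binding. The windows of Hmgcs1 (chr13:119690101-119690350, plus strand) and Insig1 (chr5:28071162-28071411, plus strand) are shown because they hold the full and the shorter SRE letters. Capitals mark every match to the 5 searches.
Hmgcs1: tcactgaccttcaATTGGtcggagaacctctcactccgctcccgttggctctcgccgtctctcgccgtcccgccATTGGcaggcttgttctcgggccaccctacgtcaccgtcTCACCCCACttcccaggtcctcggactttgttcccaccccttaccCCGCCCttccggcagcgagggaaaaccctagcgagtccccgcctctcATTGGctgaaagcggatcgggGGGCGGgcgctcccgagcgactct
Insig1: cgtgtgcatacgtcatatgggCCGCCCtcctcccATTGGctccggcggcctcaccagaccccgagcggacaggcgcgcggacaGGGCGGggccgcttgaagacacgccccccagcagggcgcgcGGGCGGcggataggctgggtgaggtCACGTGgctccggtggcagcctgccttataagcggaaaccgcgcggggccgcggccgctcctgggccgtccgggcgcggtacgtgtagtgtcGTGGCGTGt
In Hmgcs1 the SRE core TCACCCCAC lies 137 to 129 bases before the start, with 3 CCAAT matches and 2 GGGCGG matches around it. In Insig1 the shorter match, GTGGCGTG on this strand, lies 9 to 2 bases before the start. The Insig1 window was added after its match was seen.

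All values are log2 levels as deposited, so 1 unit is a factor of 2. They compare one gene across arrays and not one gene with another. Array medians over all genes lay between 4.99 and 5.22, and medians of negative control probe sets between 3.84 and 4.61. No gene of the module had a group mean below the negative control median of its group. Differences are limma group-means estimates with their standard error (SE). A gene is called where its p, adjusted over all 30742 genes by the Benjamini-Hochberg method, is under 0.05. Several comparisons share a group of arrays, so their results are not independent of each other. Epithelial markers, 9 of 9 above negative controls in every group, were present in organoids and tissue alike. The labelled whole intestine also held smooth muscle, as its 6 markers were lower in organoids in each of the 3 comparisons below, by a median of 2.37 to 3.69. In such bulk RNA, fewer cells of a type and less RNA per cell cannot be told apart.

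Against tissue, most genes of the module were higher in organoids. In adult day 3 organoids against adult intestine, 19 of the 28 genes rose and 2 fell, where 21.9% of all genes were called higher and 13.4% lower. By adult day 30 the module had 16 of 28 genes higher than that tissue and 2 lower, where 22.8% of all genes were called higher and 15.1% lower. In fetal day 3 organoids against P0 intestine 22 of the 28 rose and 0 fell, where 30.5% of all genes were called higher and 13.8% lower. The median difference over the 28 genes was 0.85, 0.79 and 1.07 in these 3 comparisons, and the median over all genes 0.02, 0.01 and 0.14. Called rises of at least 2-fold were seen in 10, 9 and 16 of the genes, and in 4.63%, 5.39% and 2.63% of all genes. The rise was called in all 3 comparisons for 15 of the 28 genes (53.6%) and for 3551 of all 30742 genes (11.6%). Adult tissue serves in both adult comparisons.

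**Figure D1:**
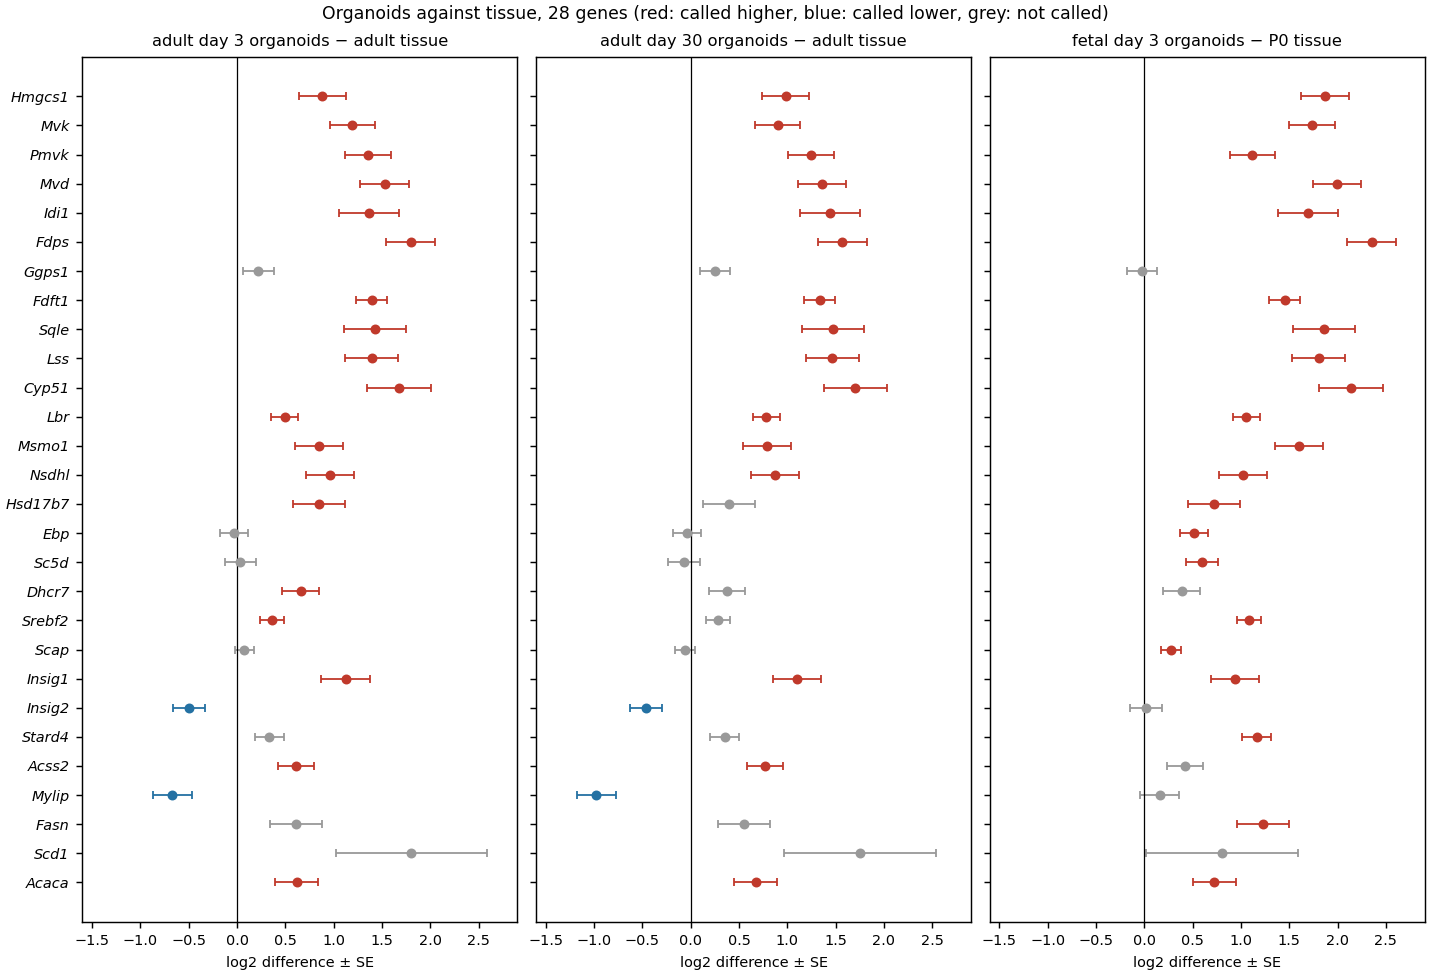
Log2 difference between organoids and tissue for each of the 28 genes (x axis, points with SE bars), in 3 comparisons of 4 arrays with 4. Red points are called higher, blue lower and grey neither; Fdps, Cyp51 and Mvd lie far to the right in every panel, while Ggps1 lies near 0 and Mylip is lower in both adult comparisons.

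The first committed steps were higher in organoids. Hmgcs1, which joins acetyl-CoA units into HMG-CoA, read 8.64, 9.005, 9.34 and 8.98 on the fetal day 3 arrays and 8.41, 9.500, 8.800 and 9.46 on the fetal day 30 arrays. Adult organoids gave 8.897, 8.92, 8.38 and 8.73 at day 3 and 8.68, 8.56, 9.59 and 8.504 at day 30. P0 intestine gave 6.98, 7.22, 7.24 and 7.05, and adult intestine 8.299, 7.94, 7.81 and 7.35. All 16 organoid arrays lay above all 8 tissue arrays, although adult tissue array 1 came close to the lowest organoid array. Hmgcs1 differed from tissue by 0.88 ± 0.24 in adult day 3 organoids (adjusted p = 0.006), 0.98 ± 0.24 in adult day 30 organoids (adjusted p = 0.0022) and 1.87 ± 0.24 in fetal day 3 organoids (adjusted p = 2.6e-06). Mvk, the mevalonate kinase, read 7.38, 7.65, 7.599 and 7.53 on the fetal day 3 arrays and 6.899, 8.27, 7.09 and 7.93 on the fetal day 30 arrays. Adult organoids gave 7.68, 8.24, 7.62 and 7.74 at day 3 and 7.84, 7.097, 8.03 and 7.14 at day 30. P0 intestine gave 5.69, 5.74, 5.95 and 5.85, and adult intestine 6.46, 6.73, 6.74 and 6.57. The organoid and tissue ranges did not meet. Mvk differed from tissue by 1.19 ± 0.23 in adult day 3 organoids (adjusted p = 0.00025), 0.90 ± 0.23 in adult day 30 organoids (adjusted p = 0.0033) and 1.74 ± 0.23 in fetal day 3 organoids (adjusted p = 4.0e-06).

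The next steps make the isoprenoid units. Mvd, the decarboxylase that forms isopentenyl pyrophosphate, read 7.79, 8.27, 8.23 and 8.37 on the fetal day 3 arrays and 7.46, 8.95, 7.71 and 8.27 on the fetal day 30 arrays. Adult organoids gave 7.94, 8.61, 7.85 and 8.16 at day 3 and 8.25, 7.56, 8.59 and 7.503 at day 30. P0 intestine gave 6.21, 6.12, 6.19 and 6.15, and adult intestine 6.67, 6.62, 6.62 and 6.55. The 8 tissue arrays lay close together and below every organoid array. Mvd differed from tissue by 1.53 ± 0.25 in adult day 3 organoids (adjusted p = 3.0e-05), 1.36 ± 0.25 in adult day 30 organoids (adjusted p = 0.00011) and 1.996 ± 0.25 in fetal day 3 organoids (adjusted p = 1.5e-06). Idi1, which interconverts the isoprenoid building blocks, read 6.14, 6.82, 6.88 and 6.58 on the fetal day 3 arrays and 6.26, 7.49, 6.52 and 7.63 on the fetal day 30 arrays. Adult organoids gave 7.08, 7.53, 6.57 and 7.01 at day 3 and 7.34, 6.62, 8.11 and 6.42 at day 30. P0 intestine gave 4.91, 4.88, 4.97 and 4.89, and adult intestine 5.800, 5.73, 5.91 and 5.29. Again no tissue array reached an organoid array. Idi1 differed from tissue by 1.36 ± 0.31 in adult day 3 organoids (adjusted p = 0.0011), 1.44 ± 0.31 in adult day 30 organoids (adjusted p = 0.00059) and 1.69 ± 0.31 in fetal day 3 organoids (adjusted p = 0.00015). Fdps, the farnesyl pyrophosphate synthase, read 9.61, 10.41, 10.44 and 10.398 on the fetal day 3 arrays and 9.38, 10.697, 9.48 and 10.29 on the fetal day 30 arrays. Adult organoids gave 9.999, 10.47, 9.85 and 10.11 at day 3 and 10.27, 9.49, 10.304 and 9.44 at day 30. P0 intestine gave 7.57, 8.07, 7.89 and 7.91, and adult intestine 8.35, 8.34, 8.399 and 8.14. The 8 tissue arrays lay well below the 16 organoid arrays. Fdps differed from tissue by 1.798 ± 0.25 in adult day 3 organoids (adjusted p = 4.0e-06), 1.57 ± 0.25 in adult day 30 organoids (adjusted p = 2.1e-05) and 2.35 ± 0.25 in fetal day 3 organoids (adjusted p = 1.8e-07). These were the largest called differences of the module in adult day 3 and fetal day 3 organoids, 3.48-fold and 5.12-fold. Pmvk, the phosphomevalonate kinase, rose in all 3 comparisons too, by 1.35 ± 0.24, 1.25 ± 0.24 and 1.12 ± 0.24. Ggps1, which leads off to geranylgeranyl pyrophosphate rather than to sterols, was called in none of the 9 comparisons. Its arrays ranged from 5.91 to 7.08, with differences from tissue of 0.22 ± 0.16, 0.25 ± 0.16 and -0.03 ± 0.16.

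The 3 enzymes from farnesyl pyrophosphate to lanosterol all rose in each of the 3 comparisons. Fdft1, the squalene synthase, read 7.94, 8.496, 8.37 and 8.101 on the fetal day 3 arrays and 7.62, 8.49, 7.95 and 8.24 on the fetal day 30 arrays. Adult organoids gave 8.32, 8.62, 8.27 and 8.42 at day 3 and 8.63, 8.04, 8.55 and 8.17 at day 30. P0 intestine gave 6.69, 7.02, 6.69 and 6.69, and adult intestine 7.15, 7.01, 6.96 and 6.92. Organoid and tissue arrays did not overlap. Fdft1 differed from tissue by 1.39 ± 0.16 in adult day 3 organoids (adjusted p = 2.1e-07), 1.34 ± 0.16 in adult day 30 organoids (adjusted p = 3.3e-07) and 1.46 ± 0.16 in fetal day 3 organoids (adjusted p = 2.4e-07). Sqle, the squalene epoxidase and a rate-limiting enzyme, read 8.16, 8.96, 8.97 and 8.797 on the fetal day 3 arrays and 8.11, 9.45, 8.27 and 9.04 on the fetal day 30 arrays. Adult organoids gave 8.66, 9.11, 8.37 and 8.76 at day 3 and 9.18, 8.26, 9.39 and 8.24 at day 30. P0 intestine gave 6.66, 7.12, 6.900 and 6.77, and adult intestine 8.27, 7.09, 7.12 and 6.72. Adult tissue array 1 stood above the other tissue arrays and above several organoid arrays. Sqle differed from tissue by 1.43 ± 0.32 in adult day 3 organoids (adjusted p = 0.00098), 1.47 ± 0.32 in adult day 30 organoids (adjusted p = 0.00065) and 1.86 ± 0.32 in fetal day 3 organoids (adjusted p = 7.6e-05). Lss, the lanosterol synthase, read 6.69, 7.78, 7.68 and 7.79 on the fetal day 3 arrays and 7.69, 8.86, 7.96 and 7.99 on the fetal day 30 arrays. Adult organoids gave 6.86, 7.49, 6.62 and 7.001 at day 3 and 7.12, 6.72, 7.89 and 6.53 at day 30. P0 intestine gave 5.501, 5.71, 5.77 and 5.73, and adult intestine 5.67, 5.78, 5.599 and 5.36. Tissue arrays were all below the organoid arrays, and fetal day 30 arrays were the highest group. Lss differed from tissue by 1.39 ± 0.27 in adult day 3 organoids (adjusted p = 0.00025), 1.46 ± 0.27 in adult day 30 organoids (adjusted p = 0.00013) and 1.805 ± 0.27 in fetal day 3 organoids (adjusted p = 1.7e-05).

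**Figure D2:**
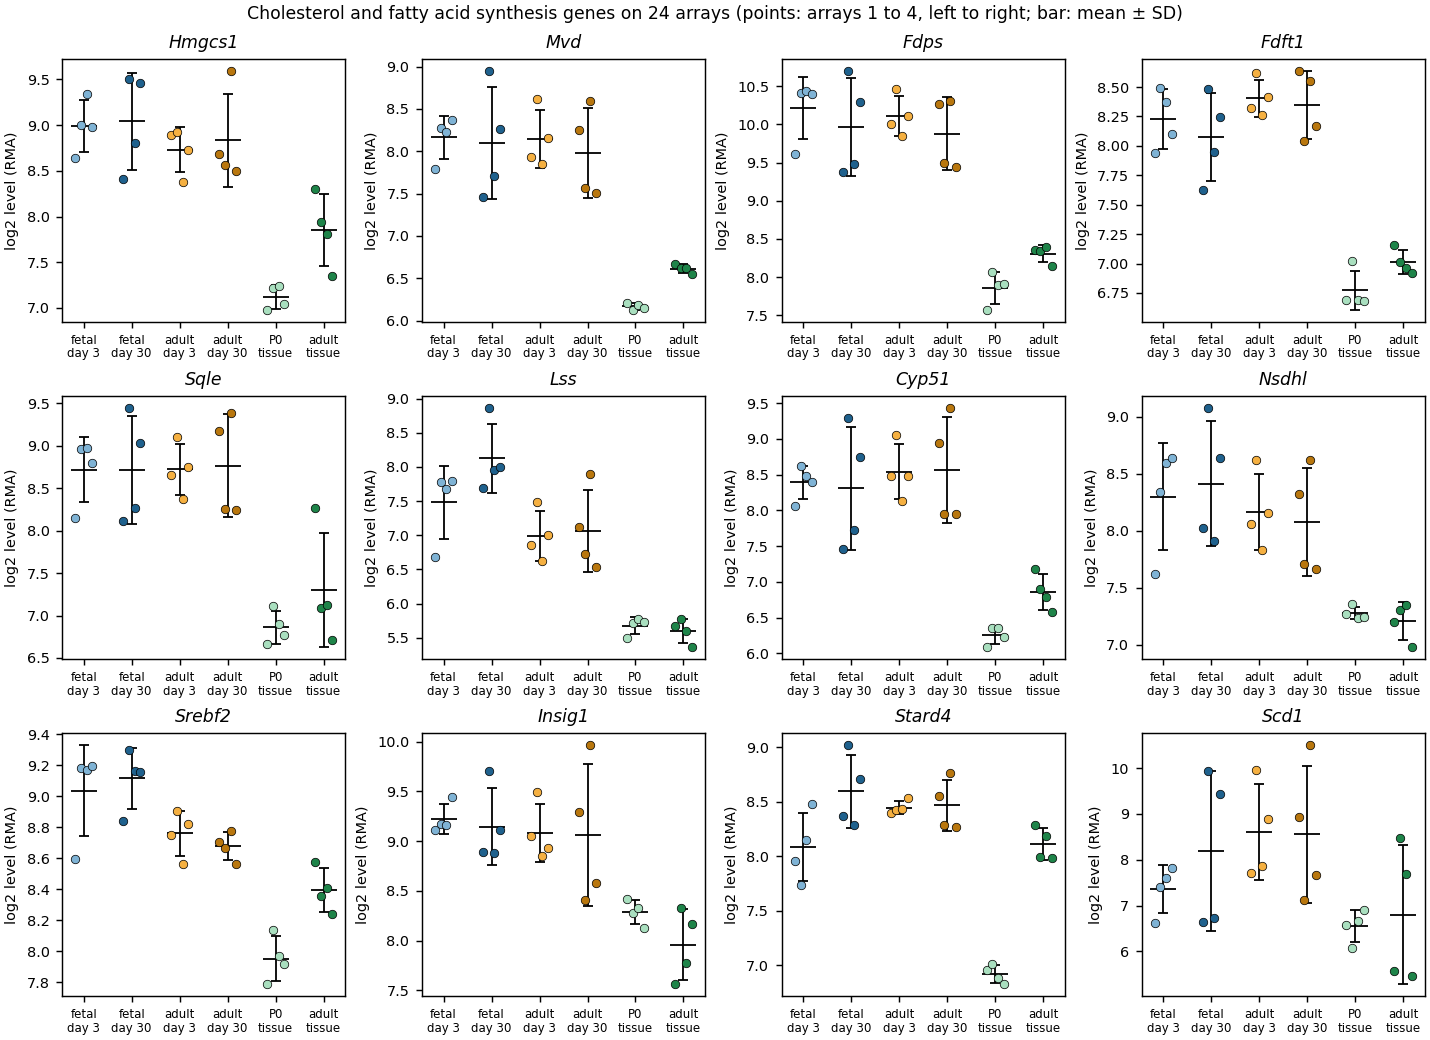
Log2 level (y axis) of 12 genes on each of the 24 arrays, in 6 groups (x axis); points are arrays 1 to 4 from left to right and bars the mean ± SD. Tissue points lie below organoid points for Mvd, Fdps, Fdft1 and Cyp51, and in organoids at day 30 the points of 1 group spread over more than 3 units for Scd1.

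Of the 8 measured genes between lanosterol and cholesterol, 6 rose in adult day 3 organoids, 4 in adult day 30 organoids and 7 in fetal day 3 organoids. Cyp51, the lanosterol demethylase, read 8.07, 8.62, 8.48 and 8.401 on the fetal day 3 arrays and 7.46, 9.29, 7.73 and 8.75 on the fetal day 30 arrays. Adult organoids gave 8.48, 9.06, 8.13 and 8.48 at day 3 and 8.94, 7.95, 9.43 and 7.94 at day 30. P0 intestine gave 6.09, 6.35, 6.36 and 6.23, and adult intestine 7.18, 6.900, 6.79 and 6.58. Tissue arrays stayed below all organoid arrays. Cyp51 differed from tissue by 1.68 ± 0.33 in adult day 3 organoids (adjusted p = 0.00024), 1.71 ± 0.33 in adult day 30 organoids (adjusted p = 0.00017) and 2.14 ± 0.33 in fetal day 3 organoids (adjusted p = 2.0e-05). Lbr, a sterol reductase that is also a nuclear lamina receptor, rose by 0.49 ± 0.14, 0.78 ± 0.14 and 1.05 ± 0.14. Msmo1 and Nsdhl act together in removing methyl groups. Msmo1 rose by 0.85 ± 0.25, 0.79 ± 0.25 and 1.598 ± 0.25. Nsdhl rose by 0.96 ± 0.25, 0.87 ± 0.25 and 1.02 ± 0.25. Hsd17b7, the ketosteroid reductase of the same step, rose by 0.85 ± 0.27 at adult day 3 and by 0.72 ± 0.27 in the fetal comparison, and its difference of 0.39 ± 0.27 at adult day 30 was not called (adjusted p = 0.29). The fetal call of Hsd17b7 ended in 10 of 19 alternative analyses, its adult day 3 call in 2 of 16, and the adult day 30 call of Msmo1 in 3 of 16.

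The last steps lead from sterol intermediates to cholesterol. Sc5d, the sterol desaturase, read 9.12, 9.25, 9.400 and 9.47 on the fetal day 3 arrays and 8.73, 9.46, 8.66 and 9.24 on the fetal day 30 arrays. Adult organoids gave 9.19, 9.38, 9.15 and 9.16 at day 3 and 9.12, 8.71, 9.65 and 8.96 at day 30. P0 intestine gave 8.84, 8.71, 8.59 and 8.71, and adult intestine 9.21, 9.19, 9.28 and 9.05. Adult organoids and adult tissue overlapped, and the P0 arrays were below the fetal day 3 arrays. Sc5d differed from tissue by 0.04 ± 0.16 in adult day 3 organoids (adjusted p = 0.91), -0.07 ± 0.16 in adult day 30 organoids (adjusted p = 0.79) and 0.60 ± 0.16 in fetal day 3 organoids (adjusted p = 0.0053). Dhcr7, which makes cholesterol from 7-dehydrocholesterol, read 7.06, 7.16, 7.08 and 7.36 on the fetal day 3 arrays and 7.297, 8.19, 7.33 and 7.86 on the fetal day 30 arrays. Adult organoids gave 7.59, 8.21, 7.52 and 7.81 at day 3 and 7.67, 7.16, 8.001 and 7.18 at day 30. P0 intestine gave 6.76, 6.92, 6.75 and 6.69, and adult intestine 7.01, 7.31, 7.04 and 7.13. Adult day 3 arrays lay above adult tissue, while the adult day 30 arrays overlapped it. Dhcr7 differed from tissue by 0.66 ± 0.19 in adult day 3 organoids (adjusted p = 0.0076), 0.38 ± 0.19 in adult day 30 organoids (adjusted p = 0.13) and 0.39 ± 0.19 in fetal day 3 organoids (adjusted p = 0.098). Ebp, the sterol isomerase, differed by -0.03 ± 0.15 and -0.04 ± 0.15 from adult tissue (not called) and rose by 0.52 ± 0.15 over P0. Its fetal call ended without fetal day 3 arrays 2 and 3, and without P0 arrays 2 and 3. The fetal call of Sc5d also ended without P0 arrays 2 and 3 (adjusted p = 0.058).

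The regulators did not move as one. Srebf2, the transcription factor of the cholesterol enzymes, read 8.59, 9.18, 9.17 and 9.197 on the fetal day 3 arrays and 8.84, 9.300, 9.16 and 9.16 on the fetal day 30 arrays. Adult organoids gave 8.75, 8.91, 8.56 and 8.82 at day 3 and 8.704, 8.67, 8.78 and 8.56 at day 30. P0 intestine gave 7.79, 8.14, 7.97 and 7.91, and adult intestine 8.58, 8.35, 8.41 and 8.24. All fetal day 3 arrays were above all P0 arrays, while adult organoids and adult tissue overlapped. Srebf2 differed from tissue by 0.37 ± 0.12 in adult day 3 organoids (adjusted p = 0.023), 0.28 ± 0.12 in adult day 30 organoids (adjusted p = 0.077) and 1.08 ± 0.12 in fetal day 3 organoids (adjusted p = 3.8e-07). The adult day 3 call of Srebf2 ended in 5 of 16 alternatives. Insig1, a sterol sensor and itself an SREBP target, read 9.12, 9.17, 9.17 and 9.45 on the fetal day 3 arrays and 8.89, 9.702, 8.88 and 9.11 on the fetal day 30 arrays. Adult organoids gave 9.05, 9.499, 8.85 and 8.94 at day 3 and 9.295, 8.405, 9.97 and 8.58 at day 30. P0 intestine gave 8.42, 8.28, 8.33 and 8.13, and adult intestine 7.56, 8.33, 7.78 and 8.17. Every organoid group lay above its tissue group. Insig1 differed from tissue by 1.12 ± 0.25 in adult day 3 organoids (adjusted p = 0.00093), 1.100 ± 0.25 in adult day 30 organoids (adjusted p = 0.001) and 0.94 ± 0.25 in fetal day 3 organoids (adjusted p = 0.0047). Insig2, the second INSIG protein, read 6.603, 7.22, 7.07 and 7.01 on the fetal day 3 arrays and 6.66, 7.02, 7.02 and 7.101 on the fetal day 30 arrays. Adult organoids gave 6.77, 6.82, 6.99 and 6.93 at day 3 and 6.93, 6.86, 6.93 and 6.91 at day 30. P0 intestine gave 6.95, 7.15, 6.86 and 6.87, and adult intestine 8.096, 6.99, 7.19 and 7.22. Adult tissue array 1 was the highest of the 24. Insig2 differed from tissue by -0.50 ± 0.17 in adult day 3 organoids (adjusted p = 0.022), -0.46 ± 0.17 in adult day 30 organoids (adjusted p = 0.03) and 0.02 ± 0.17 in fetal day 3 organoids (adjusted p = 0.94). Insig2 was thus lower in adult organoids where Insig1 was higher, but without adult tissue array 1 neither fall was called (-0.26 and -0.22). In all, the adult day 3 call of Insig2 ended in 5 of 16 alternatives and its adult day 30 call in 7 of 16. Scap, the escort protein of SREBP, read 7.59, 8.04, 7.99 and 7.98 on the fetal day 3 arrays and 7.62, 7.95, 8.04 and 7.82 on the fetal day 30 arrays. Adult organoids gave 7.55, 7.87, 7.64 and 7.83 at day 3 and 7.63, 7.596, 7.49 and 7.62 at day 30. P0 intestine gave 7.65, 7.69, 7.68 and 7.48, and adult intestine 7.61, 7.63, 7.604 and 7.74. Its groups overlapped in all 3 comparisons. Scap differed from tissue by 0.08 ± 0.10 in adult day 3 organoids (adjusted p = 0.63), -0.06 ± 0.10 in adult day 30 organoids (adjusted p = 0.71) and 0.28 ± 0.10 in fetal day 3 organoids (adjusted p = 0.029). The fetal call of Scap ended in 10 of 19 alternatives.

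The further SREBP targets Stard4 and Acss2, and Mylip, which is also on the list, varied among themselves. Stard4, a cytosolic sterol carrier, read 7.96, 7.74, 8.15 and 8.48 on the fetal day 3 arrays and 8.37, 9.02, 8.29 and 8.704 on the fetal day 30 arrays. Adult organoids gave 8.400, 8.42, 8.43 and 8.53 at day 3 and 8.55, 8.29, 8.76 and 8.26 at day 30. P0 intestine gave 6.96, 7.02, 6.89 and 6.83, and adult intestine 8.29, 7.997, 8.18 and 7.98. P0 arrays were the lowest group and met no other group. Stard4 differed from tissue by 0.33 ± 0.15 in adult day 3 organoids (adjusted p = 0.09), 0.35 ± 0.15 in adult day 30 organoids (adjusted p = 0.067) and 1.16 ± 0.15 in fetal day 3 organoids (adjusted p = 1.9e-06). Acss2, which makes acetyl-CoA from acetate, read 5.83, 6.05, 5.89 and 6.35 on the fetal day 3 arrays and 6.84, 7.68, 6.85 and 6.96 on the fetal day 30 arrays. Adult organoids gave 6.76, 7.23, 6.72 and 6.76 at day 3 and 7.07, 6.82, 7.57 and 6.66 at day 30. P0 intestine gave 5.75, 5.62, 5.52 and 5.54, and adult intestine 5.98, 6.39, 6.35 and 6.32. Fetal day 3 arrays lay between the P0 arrays and the other organoid groups. Acss2 differed from tissue by 0.61 ± 0.19 in adult day 3 organoids (adjusted p = 0.012), 0.77 ± 0.19 in adult day 30 organoids (adjusted p = 0.0017) and 0.42 ± 0.19 in fetal day 3 organoids (adjusted p = 0.068). Its adult day 3 call ended in 3 of 16 alternatives, among them without adult tissue array 1. Mylip, the ubiquitin ligase (Idol) that degrades lipoprotein receptors and is induced by LXR, read 6.57, 7.26, 7.603 and 6.78 on the fetal day 3 arrays and 6.16, 6.03, 6.497 and 5.99 on the fetal day 30 arrays. Adult organoids gave 6.37, 6.08, 6.29 and 6.37 at day 3 and 5.599, 6.13, 5.83 and 6.34 at day 30. P0 intestine gave 7.03, 6.61, 6.92 and 7.01, and adult intestine 7.47, 6.600, 6.92 and 6.803. In adult samples the organoid arrays lay below the tissue arrays, and fetal day 3 arrays overlapped P0. Mylip differed from tissue by -0.67 ± 0.20 in adult day 3 organoids (adjusted p = 0.011), -0.97 ± 0.20 in adult day 30 organoids (adjusted p = 0.00038) and 0.16 ± 0.20 in fetal day 3 organoids (adjusted p = 0.53). Without adult tissue array 1 the adult day 3 fall of Mylip was -0.50 and not called (adjusted p = 0.059).

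Among the fatty acid enzymes, Fasn, the fatty acid synthase, rose over P0 by 1.23 ± 0.27 and differed by 0.61 ± 0.27 and 0.55 ± 0.27 from adult tissue without a call (adjusted p = 0.091 and 0.12). Acaca, which makes malonyl-CoA, rose in all 3 comparisons, by 0.62 ± 0.22, 0.67 ± 0.22 and 0.72 ± 0.22. Each of those 3 calls ended in some alternative. Scd1, the stearoyl-CoA desaturase, was never called in the 9 comparisons and had the widest spread of the module. Scd1, shown for this spread after its values were seen, read 6.61, 7.42, 7.603 and 7.82 on the fetal day 3 arrays and 6.64, 9.95, 6.74 and 9.44 on the fetal day 30 arrays. Adult organoids gave 7.705, 9.95, 7.87 and 8.89 at day 3 and 8.93, 7.12, 10.503 and 7.66 at day 30. P0 intestine gave 6.58, 6.08, 6.66 and 6.904, and adult intestine 5.58, 8.49, 7.68 and 5.46. Arrays of 1 group differed by up to 3.38 units in organoids and 3.03 in adult tissue. Scd1 differed from tissue by 1.804 ± 0.79 in adult day 3 organoids (adjusted p = 0.082), 1.75 ± 0.79 in adult day 30 organoids (adjusted p = 0.087) and 0.81 ± 0.79 in fetal day 3 organoids (adjusted p = 0.41). A second Scd1 probe set spread as widely, with an SD of 2.02 in adult day 30 organoids against 1.51 for the first.

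For 11 of the 28 genes (39.3%) every one of the 16 organoid arrays lay above every one of the 8 tissue arrays, as it did for 6.91% of all genes. They were Hmgcs1, Mvk, Pmvk, Mvd, Idi1, Fdps, Fdft1, Lss, Cyp51, Lbr and Nsdhl. In alternative analyses the number called higher stayed between 14 and 20 for the adult comparisons and between 18 and 24 for the fetal one, and no called difference changed sign. The mean over the 28 genes lay between 7.48 and 8.53 on organoid arrays and between 6.77 and 7.26 on tissue arrays.

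Markers of other cells and states moved with these differences, and their part in the result was not tested. Proliferation markers were called higher in 9 of 9, 8 of 9 and 9 of 9 genes in adult day 3, adult day 30 and fetal day 3 organoids, by a median of 1.24, 1.17 and 1.15. Their summed level was 11.53 to 12.51 in the 4 organoid groups, 10.68 to 11.09 in P0 and 10.75 to 11.24 in adult tissue (log2). Fibroblast markers (5 of 5) and endothelial markers (5 of 5) were lower in each comparison, like those of smooth muscle. Summed smooth muscle levels were 7.36 to 8.40 in organoids, 11.85 to 12.22 in P0 and 9.60 to 10.81 in adult tissue. Fibroblast sums were 7.75 to 9.83, 10.5 to 11.25 and 9.375 to 9.89, and endothelial sums 6.83 to 7.83, 9.575 to 10.03 and 8.06 to 8.46. In organoid groups 0 of 6 smooth muscle, up to 2 of 5 fibroblast and up to 1 of 5 endothelial markers were below the negative controls. Epithelial markers gave 2 higher and 5 lower of 9 in both adult comparisons and 5 higher and 1 lower of 9 in the fetal one. The epithelial sum was 13.90 to 14.45 in organoids, 13.46 to 13.57 in P0 and 14.12 to 14.47 in adult tissue, and it overlapped between adult organoids and adult tissue. Enterocyte markers were lower in 5, 6 and 6 of 8, with 1 higher in the fetal comparison. Enterocyte sums were 13.56 to 14.26 in organoids and 14.65 to 14.96 in tissue.

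Xist, the RNA of the inactive X chromosome in female cells, read 9.81 to 11.6 on all 16 organoid arrays, 3.77 to 4.24 on the 4 adult tissue arrays, and 10.6, 3.81, 4.01 and 10.5 on P0 arrays 1 to 4. Sex and sample type therefore cannot be told apart in the adult comparisons. With P0 arrays 2 and 3 left out, all arrays of the fetal comparison carried Xist. There 18 of the 28 genes were still called higher in fetal day 3 organoids, as were 5581 of all 30742 genes. Fetal day 3 organoids also carried stomach genes (7 of 7 higher than P0) and pancreatic acinar genes (4 of 5 higher), unevenly over the arrays, with stomach sums of 9.20 to 13.82 against 7.205 to 7.37 in P0. Without fetal day 3 arrays 2 and 3, 18 of the 28 genes were called higher, as were 8108 of all 30742 genes. This does not remove the stomach and pancreatic genes, as fetal day 3 array 1 read 10.98 for Tff2 and 7.06 for Cpa1, against at most 5.25 and 4.76 in P0. Markers of leukocytes were lower in 5 and 6 of 6 in the adult comparisons and gave 3 higher and 2 lower in the fetal one. Of 4 neuron and glia markers 1, 1 and 2 were lower, of 4 adipocyte markers 3, 3 and 1 (with 1 higher in the fetal comparison), and of 6 hepatocyte markers 2, 2 and 1 were higher, with 3 lower in the fetal comparison.

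Adult tissue exceeded P0 tissue for 6 genes and was lower for 0 of the 28, where 14.9% of all genes were called higher and 12.1% lower. The median difference was 0.35 over the module and 0.08 over all genes. Stard4 rose most, by 1.19 ± 0.15 or 2.28-fold (adjusted p = 1.4e-06), and all adult arrays were above all P0 arrays. Mvk followed at 0.82 ± 0.23 and Hmgcs1 at 0.73 ± 0.24 (adjusted p = 0.011 and 0.03). Acss2 rose by 0.65 ± 0.19, Sc5d by 0.47 ± 0.16 and Srebf2 by 0.44 ± 0.12 (adjusted p = 0.011, 0.036 and 0.0091). Adult and P0 ranges did not meet for these 6 genes, nor for 7 others that were not called, among them Mvd, Fdps and Cyp51. All adult arrays lay above all P0 arrays for 17.2% of all genes. Insig1 was the gene with the largest lower value, -0.33 ± 0.25 (adjusted p = 0.35). The count was 2 without P0 arrays 2 and 3, 2 without P0 arrays 1 and 4, and 14 where the spread was estimated from these 8 arrays alone. Of all 30742 genes, 2478, 3242 and 4291 were called higher in these settings. Only Stard4 was called in every alternative. Epithelial markers moved the same way, with 8 of 9 higher in adult tissue (median 0.54), as did leukocyte markers, with 5 of 6 higher (median 1.36), and smooth muscle (6 of 6), endothelial (5 of 5) and fibroblast markers (4 of 5) were lower. Their part in the result was not tested.

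Culture time was compared between day 3 and day 30. In fetal organoids 2 of the 28 genes (7.14%) rose and 1 (3.57%) fell, where 6.77% of all genes were called higher and 8.72% lower, so the share that rose was close to that of all genes. Acss2 rose by 1.05 ± 0.19, 2.07-fold (adjusted p = 0.00035), and its call held in every alternative. All its day 30 arrays were above all day 3 arrays. Stard4 rose by 0.51 ± 0.15 with overlapping groups (adjusted p = 0.02), a call that ended in 6 of 17 alternatives. Mylip fell by 0.89 ± 0.20 without overlap (adjusted p = 0.0035). Without fetal day 3 arrays 2 and 3, where stomach and pancreatic genes were highest, the fall of Mylip was 0.51 and not called. The call of Stard4 ended there too. Other markers were lower at fetal day 30 than at day 3: 5 of 5 fibroblast (median -1.38), 5 of 5 endothelial (-0.59), 4 of 6 smooth muscle and 3 of 6 leukocyte markers. Stomach (4 of 7, median -2.69) and pancreatic acinar markers (3 of 5, -2.05) were lower too. Their sums on fetal day 30 arrays still ran from 8.14 to 12.68 and from 9.91 to 11.67. The part of all these markers in the changes was not tested. The regulators differed between the times by 0.08 ± 0.12 (Srebf2), -0.04 ± 0.10 (Scap), -0.08 ± 0.25 (Insig1) and -0.02 ± 0.17 (Insig2), none called.

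In adult organoids between day 3 and day 30, limma called 0 of the 28 genes higher and 0 lower, where 0.026% and 0.0228% of all genes were called. The unadjusted limma p was under 0.05 for 1 of the 28 and for 2585 of all 30742 genes. The differences ran from -0.45 ± 0.27 for Hsd17b7 to 0.29 ± 0.14 for Lbr. Srebf2, Scap, Insig1 and Insig2 differed by -0.08 ± 0.12, -0.13 ± 0.10, -0.02 ± 0.25 and 0.03 ± 0.17. The test of whether fetal and adult organoids changed differently called 0 higher and 0 lower, where 1.01% and 1.96% of all genes were called. An unadjusted p under 0.05 was found for 3 of the 28 and for 4180 of all 30742 genes. The highest such values were Acss2 at 0.89 ± 0.26, Scd1 at 0.88 ± 1.11 and Dhcr7 at 0.78 ± 0.27 (adjusted p = 0.072, 0.83 and 0.13). The changes of Acss2 and Mylip in fetal organoids were therefore not shown to differ from those in adult organoids.

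Adult and fetal organoids were compared at each time. At day 3, 2 of the 28 genes were higher in adult organoids and 1 lower, where 14.4% of all genes were called higher and 10.1% lower. Acss2 was higher by 0.84 ± 0.19 (adjusted p = 0.0017) and Dhcr7 by 0.62 ± 0.19 (adjusted p = 0.018). Mylip was lower by 0.78 ± 0.20 (adjusted p = 0.0062). None of the 3 overlapped between the groups. Without fetal day 3 arrays 2 and 3 the Dhcr7 and Mylip calls ended, and that of Acss2 held. Fibroblast (4 of 5, median -1.23), endothelial (5 of 5, -0.61) and smooth muscle markers (3 of 6) were lower in adult organoids at day 3. So were stomach (6 of 7, -3.55) and pancreatic acinar markers (4 of 5, -2.29). The part of these markers in the differences was not tested. This comparison shares the fetal day 3 arrays with the culture comparison, so the values of Acss2 and Mylip in both rest on the same 4 arrays.

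At day 30, 0 of the 28 were called higher and 2 lower in adult organoids, where 6.79% of all genes were called higher and 2.17% lower. Lss was lower by 1.06 ± 0.27, 2.09-fold, with adult array 3 inside the fetal range (adjusted p = 0.016). Srebf2 was lower by 0.44 ± 0.12 with no overlap (adjusted p = 0.027). Both calls ended in some alternatives, 4 of 16 for Lss and 7 of 16 for Srebf2. Scap, Insig1 and Insig2 differed by -0.27 ± 0.10, -0.09 ± 0.25 and -0.04 ± 0.17 at day 30 and by -0.18 ± 0.10, -0.14 ± 0.25 and -0.10 ± 0.17 at day 3, none called. Srebf2 itself differed by -0.27 ± 0.12 at day 3 (adjusted p = 0.11).

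The spread within organoid groups was wide for this module and shared by its genes. The median SD over the 28 genes was 0.256 in adult day 3, 0.429 in adult day 30, 0.296 in fetal day 3 and 0.443 in fetal day 30 organoids, where the median SD over all genes was 0.118, 0.122, 0.163 and 0.143. In P0 tissue it was 0.122 against 0.109, and in adult tissue 0.184 against 0.148. At day 30, 22 of the 28 genes in fetal organoids and 19 in adult organoids were among the 10 percent of genes with the largest SD of their group. Such genes numbered 14 in adult day 3 and 12 in fetal day 3 organoids, 8 in adult tissue and 1 in P0 tissue.

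The same array tended to be extreme for many of the genes. Adult day 30 array 3 was the highest of its group for 25 of the 28, where it was highest for 31.4% of all genes. Adult day 3 array 2 was highest for 23 (25.6% of all genes), and array 3 lowest for 20 (21.5%). Fetal day 30 array 2 was highest for 21 (23.0%), and array 1 lowest for 20 (24%). Fetal day 3 array 1 was lowest for 27 (21.3%). In tissue the order was less uniform, and adult tissue array 4 was lowest for 19 (24.8%). The mean over the 28 genes was 8.02, 7.56, 8.39 and 7.59 on adult day 30 arrays 1 to 4, and 7.56, 8.53, 7.73 and 8.27 on fetal day 30 arrays 1 to 4. On the adult day 30 arrays Mylip ran the other way, with 5.60 and 5.83 on arrays 1 and 3 and 6.13 and 6.34 on arrays 2 and 4.

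**Figure D3:**
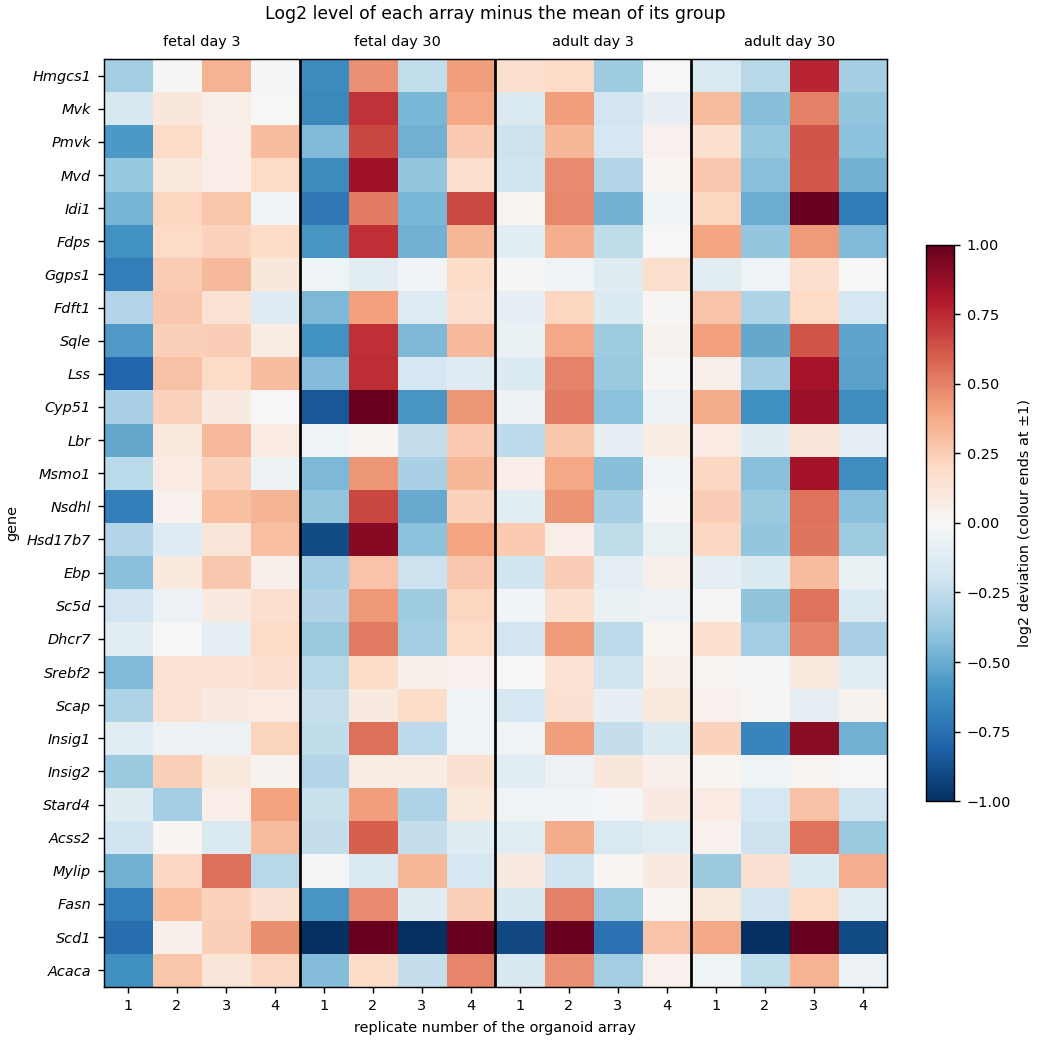
Log2 level of each of 28 genes (y axis) on each of the 16 organoid arrays (x axis) minus the mean of its group of 4 arrays; red is above and blue below the group mean. Array 3 of adult day 30 and array 2 of fetal day 30 are red for most genes, and array 1 of fetal day 3 is blue for nearly all.

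Other gene lists had arrays in common with the module. Of 14 further genes of fatty acid synthesis, 9 were highest on adult day 30 array 3 and 8 on fetal day 30 array 2, and 10 were lowest on fetal day 30 array 1. Of 9 proliferation markers, 6 were highest on adult day 30 array 3 (31.4% of all genes). On adult day 30 array 4, 8 of the 9 were lowest, as were 13 of the 28 module genes (25.7% of all genes). All 9 were highest on fetal day 30 array 4 (27.4% of all genes), the array with the second highest module mean. On fetal day 30 array 2, where 21 of the 28 module genes were highest, 0 of the 9 were highest. At fetal day 30, 7 of the 9 were lowest on array 3 (25.3% of all genes), whereas 20 module genes were lowest on array 1 (24%). At day 3 all 9 were highest on adult array 2, 8 were lowest on adult array 3 and 9 were lowest on fetal array 1, the same arrays that were extreme for the module. Epithelial markers were highest on adult day 30 array 2 (5 of 9) and on fetal day 30 array 4 (7 of 9), against 21.7% and 27.4% of all genes. The signal of positive over negative control probe sets, as the area under their curve, was 0.903, 0.892, 0.912 and 0.891 on adult day 30 arrays 1 to 4 and 0.880, 0.903, 0.8996 and 0.903 on fetal day 30 arrays 1 to 4. The area was 0.892 on fetal day 3 array 1, against 0.911 to 0.922 on the others of that group. The part of array quality in this spread was not tested.

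Genes around the module were taken from 5 lists. Of 9 listed genes of sterol synthesis and uptake outside the module, 4 were measured. Tmem97, a sterol-binding protein, rose by 1.40, 1.24 and 0.73 in adult day 3, adult day 30 and fetal day 3 organoids against tissue. Erg28, a scaffold of sterol demethylation, rose by 0.83, 0.71 and 0.42. Cyb5r3, a cytochrome b5 reductase, fell by 0.51 at adult day 30 and rose by 0.50 in fetal organoids, and Acat1, the mitochondrial thiolase, fell by 0.93 in fetal organoids. The others are not analysed here.

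Of 14 further fatty acid genes, 9 rose and 2 fell in adult day 3, 7 rose and 2 fell in adult day 30, and 10 rose and 1 fell in fetal day 3 organoids, with medians of 0.69, 0.56 and 0.76. Over all genes, 21.9%, 22.8% and 30.5% were called higher and 13.4%, 15.1% and 13.8% lower. Fads1, a desaturase of polyunsaturated fatty acids, rose by 1.78, 1.87 and 1.52, and Acly, which makes cytosolic acetyl-CoA, by 1.07, 1.18 and 1.11. Aacs, which activates acetoacetate, rose by 0.64 in adult day 3 and 1.61 in fetal day 3 organoids. Thrsp, a lipogenic protein, was called lower in adult organoids, where its arrays read 4.07 to 4.59, close to negative control medians of 4.07 (day 3) and 4.13 (day 30), so no size of the fall is given. On the adult tissue arrays Thrsp read 4.40, 6.32, 5.64 and 5.18, highest on arrays 2 and 3. Of 4 measured adipocyte markers, 4 were highest on array 2. Among them Adipoq read 4.57 and 4.08 on arrays 2 and 3. Negative control medians there were 4.42 and 4.40, so Adipoq lay near or below them. Of the 4 adipocyte markers, 2 had an adult tissue mean below the negative controls and the others did not. The sum of the 4 was 7.43 to 8.08 in adult tissue. The part of adipocytes in the Thrsp level was not tested. Me1, the malic enzyme, rose by 1.40 in adult day 3 organoids. It also fell by 1.76 in fetal organoids with culture, a call that was not made without fetal day 3 arrays 2 and 3 (-1.46).

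The shares of all genes called higher in these 3 comparisons were 21.9%, 22.8% and 30.5%, and lower 13.4%, 15.1% and 13.8%. Counts in the small lists below are to be read beside these shares. Proteins that process or degrade SREBP and its sensors gave 1, 1 and 3 rises and 0 falls among 7 measured genes, with medians of 0.00, 0.00 and 0.03. Fbxw7, a ubiquitin ligase subunit, rose by 0.36 and 0.30 in adult organoids, and Rnf145, an endoplasmic reticulum ligase, by 0.43 in fetal ones. Of 8 genes of the other isoprenoid branches, 3 rose in each comparison and 1 fell in adult day 30 organoids, with medians of 0.09, 0.19 and 0.10. Fnta, a prenyltransferase subunit, rose by 0.73, 0.77 and 0.27, and Coq2, of ubiquinone synthesis, by 0.51, 0.66 and 0.49. LXR receptors sense oxidised sterols and induce sterol export. Among 7 LXR genes 0 rose, and 5, 5 and 4 fell, with medians of -0.57, -0.52 and -0.62. Abca1, the sterol exporter, fell by 2.02 and 2.27 in adult organoids, and Abcg5 and Abcg8, a pair of half-transporters, fell in all 3 comparisons, Abcg5 by 1.08, 1.36 and 1.46 and Abcg8 by 0.99, 1.14 and 1.60.

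**Figure D4:**
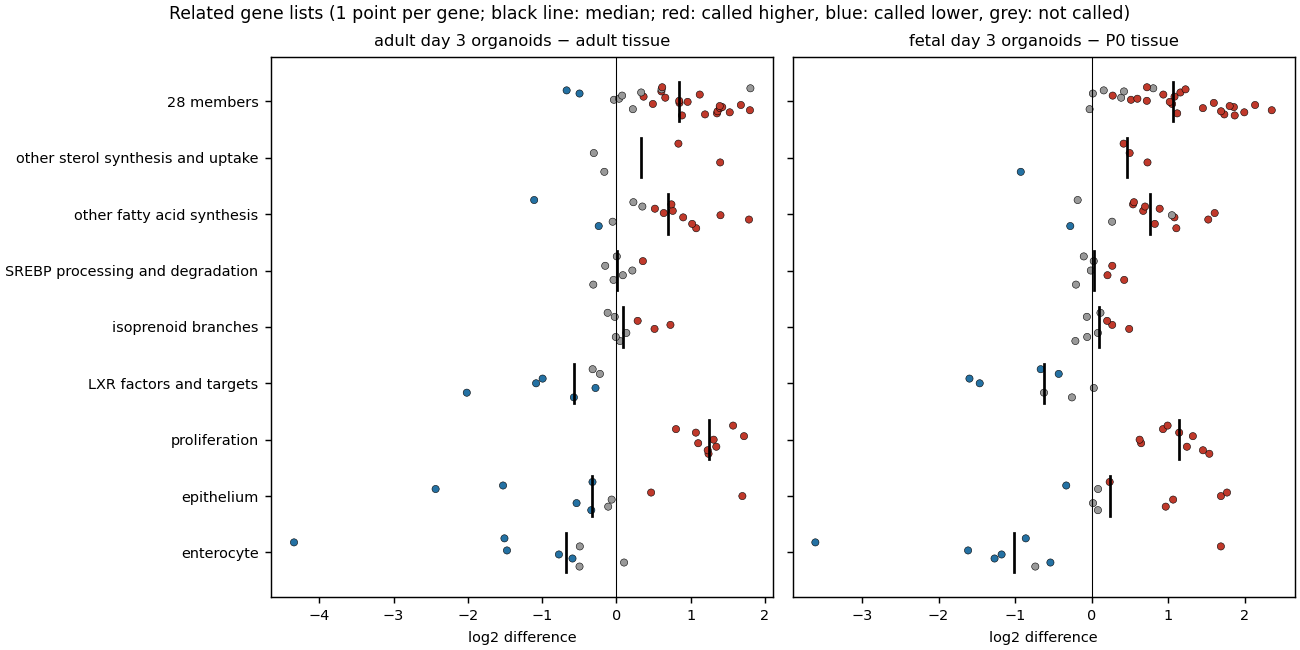
Log2 difference between organoids and tissue (x axis) for the genes of the module and of 8 related lists (1 row per list, 1 point per gene, black line at the median), for adult day 3 and fetal day 3 organoids. The module and the proliferation list lie mostly right of 0, and the LXR and enterocyte lists mostly left.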

How the data were processed

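Gene expression was measured on 24 Affymetrix arrays of mouse intestine and intestinal organoids, 4 in each of 6 groups taken from the labels. The authors' deposited table holds log2 values from RMA, run in Affymetrix Expression Console per the submitters' processing notes; the RMA settings are not stated. RMA brings arrays to a common distribution, so a shift of all genes cannot be seen. Of 72688 probe sets, 6732 were controls, 31216 named 1 gene, 1534 several and 33206 none. For genes with several probe sets the one with the highest mean was used, and 813 symbols were updated through RefSeq (GRCm38.p6), which left 30742 genes with no filter on low values.

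A group-means model over all 24 arrays was fitted with limma 3.58.1 in R 4.3.3 (18 residual and 4.25 prior degrees of freedom), with Benjamini-Hochberg adjusted p-values over all genes, in 9 comparisons; the script was tested on simulated data. The number of arrays limits the precision. Alternatives were the mean of probe sets, a filter on low genes, another variance prior, fits on the compared groups alone, centred or newly quantile-normalized arrays, a replicate block, array weights, and arrays left out. Replicate numbers were not taken as pairs, since the labels state no pairing. Named genes were up to 6 called genes with the largest rise and fall per comparison, the regulators, and up to 4 called genes per related list. Genes and lists were chosen with earlier results of these data known, and no set test was run.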

Additional observations from a re-analysis of the deposited data

Results flagged for a closer look

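In 12 of the 168 groups of 4 arrays tested over the 28 genes, 1 array stood far from the other 3 (Dixon's criterion), and chance alone gives about 1 in 20. Fetal day 3 array 1 was the far array for 5 genes, low each time: Fdps at 9.608 (others 10.4 to 10.44), Lss at 6.687 (7.677 to 7.793), Srebf2 at 8.593 (9.168 to 9.197), Scap at 7.592 (7.982 to 8.041) and Fasn at 8.604 (9.44 to 9.591). Adult day 30 array 3 was high for Hmgcs1 at 9.592 (8.504 to 8.68) and Ebp at 6.431 (5.974 to 6.048). Adult day 3 array 2 was high for Sc5d at 9.376 (9.15 to 9.187) and Acss2 at 7.233 (6.716 to 6.757). Acss2 was also high on fetal day 30 array 2, at 7.677 (6.845 to 6.959), and low on adult tissue array 1, at 5.975 (6.325 to 6.392). Fdft1 was high on P0 array 2, at 7.021 (6.686 to 6.69).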

How the results depend on the processing

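No called difference of the module changed sign in any alternative, and of the 75 calls over all comparisons those of 15 genes in each adult organoid comparison and 17 in the fetal one held throughout. Other counts moved, and except where fewer arrays or genes entered the cause was not tested. Fitting only the compared groups gave 1 rise with fetal culture, 1 fall between organoids at day 30, 14 rises in adult over P0 tissue, and 1 fall in each adult organoid comparison with tissue. Of all 30742 genes, 1010 rose, 387 fell and 4291 rose in the first 3 of these, and 3971 and 4274 fell in adult day 3 and day 30 organoids. Centring arrays on their median gave 1 fall at day 30, 3 rises in adult over P0 tissue and 1 fall in each adult comparison with tissue. The counts over all genes there were 689 falls, 3071 rises, and 3799 and 3993 falls. A second quantile normalization gave 4 falls between organoids at day 3, where 3820 of all 30742 genes fell. Array weights gave 5 falls there, 1 gene with a different culture change (called higher), 12 rises in adult over P0 tissue and 1 fall in adult day 30 organoids. Among all 30742 genes these counts were 3544, 479, 6513 and 5250. The filter on low genes gave 1 gene with a different culture change, called higher like 378 of the 16981 genes kept. Leaving out fetal day 3 arrays 2 and 3 gave 0 falls with fetal culture, and 1 rise and 0 falls between organoids at day 3. Over all genes these were 1809 falls, 3034 rises and 2220 falls. Leaving out P0 arrays 2 and 3, or 1 and 4, gave 2 rises in adult over P0 tissue, and 2478 or 3242 among all genes. Leaving out each array in turn gave 1 to 3 rises with fetal culture, 0 to 2 genes with a different culture change, 1 to 3 rises and 1 to 5 falls between organoids at day 3, 0 to 3 falls at day 30, and 0 to 2 and 1 to 2 falls in adult day 3 and day 30 organoids against tissue. Same-numbered arrays deviated together with correlations from -0.306 to 0.296, and the numbers were not taken as pairs. This check cannot exclude pairing, as differently numbered arrays were not compared. With the replicate block 20 genes rose in adult day 3 organoids and 5 in adult over P0 tissue, as did 6612 and 4399 of all genes. No other count of the module changed with that block. The share of rises among all called genes, with arrays centred, moved from 43.7% to 65.4% for fetal culture, from 34.0% to 44.8% for the difference in culture change, from 55.2% to 40.1% for adult over P0 tissue and from 68.9% to 54.5% for fetal organoids over P0. With a second quantile normalization it moved from 75.8% to 52.3% at day 30, from 55.2% to 43.1% for adult over P0 tissue and from 68.9% to 53.3% for fetal organoids over P0. In adult organoid culture, with 15 called genes, it moved from 53.3% to 33.3% (centred) and to 0% (second quantile normalization).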

Other observations

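Genes of the LXR list changed with fetal culture. With culture of fetal organoids from day 3 to day 30, 3 of 7 LXR genes rose and 2 fell, where 6.77% of all genes were called higher and 8.72% lower. Abcg8 rose by 1.26, Abcg5 by 0.91 and Nr1h3, which encodes an LXR receptor, by 0.46. Smpdl3a fell by 1.81 and Abcg1, a sterol exporter, by 0.27. In adult organoids 0 of these 7 genes were called in either direction over the same time, where 0.026% and 0.0228% of all genes were called higher and lower. The test of the difference in culture change called 2 of the 7 higher and 1 lower, where 1.01% and 1.96% of all genes were called. Tmem97 rose by 0.46 and Fads2, a fatty acid desaturase, by 0.58 in fetal culture. At day 3, adult organoids exceeded fetal ones for Tmem97 by 0.87, Abcg8 by 1.25 and Abcg5 by 0.98, which rest on the same fetal day 3 arrays. Stomach and pancreatic genes were highest on fetal day 3 arrays 2 and 3, while array 1 was lowest for 27 of the 28 module genes. Without arrays 2 and 3, the culture calls of Abcg8 (0.91), Smpdl3a (-1.898), Abcg1 (-0.34) and Fads2 (0.696) were made again. Those of Abcg5 (0.47), Nr1h3 (0.35) and Tmem97 (0.38) were not. Of the 3 calls in the test of the difference, that of Smpdl3a (-2.096) was made again, and those of Abcg8 (1.05) and Abcg5 (0.74) were not. At day 3 the calls of Tmem97 (0.79) and Abcg8 (0.89) were made again, and that of Abcg5 (0.54) was not.

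Adult tissue exceeded P0 tissue for Abca1 by 1.13, for Nr1h3 by 0.66 and for Abcg5 by 0.60, while Smpdl3a was lower by 0.92. Me1 was lower in adult tissue by 1.69. Of the 8 measured genes of other isoprenoid branches, 3 were higher and 3 lower, where 14.9% of all genes were called higher and 12.1% lower. Among the 8 were Pdss2, of ubiquinone synthesis, at 0.66 and Nus1, of dolichol synthesis, at -0.45.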
